A study of Mus musculus with 6 samples.

Results

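The Notch pathway carries signals between touching cells: a ligand on one cell binds a Notch receptor on its neighbour, the receptor is cleaved, and its freed inner part enters the nucleus and acts with the DNA-binding protein RBPJ. Among the genes it switches on are those of the Hes and Hey families, basic helix-loop-helix repressors that in turn bind DNA. In zebrafish the pathway is known for patterning the upper and lower jaw through a Jagged ligand in cells derived from the neural crest (NCC).

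This account covers 9 mouse genes of the pathway: the ligand genes *Jag1*, *Jag2* and *Dll1*, the receptor genes *Notch1* and *Notch2*, and the repressor genes *Hes1*, *Hey1*, *Hey2* and *Heyl*. They were chosen from 21951 protein-coding genes, with their peaks in these data already known, so the number and the overlap of their peaks are given as a description and without a test. Every peak counted here had its midpoint within 100 kb of the gene body in mm10. By this rule 18 of 5427 Gli3 peaks from the mandibular prominence (MNP), 25 of 5752 Gli3 peaks from the whole face and 118 of 59583 Hand2 peaks from the MNP belonged to the 9 genes, and no peak was counted for more than 1 of them.

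The peaks came from ChIP-seq, which recovers the DNA bound to a protein, with an antibody against FLAG. Gli3, a transcription factor at the end of the Hedgehog pathway, was recovered from MNPs and, separately, from whole faces of embryos that carried a FLAG tag in the endogenous *Gli3* gene, and Hand2, a basic helix-loop-helix factor of the distal MNP, was recovered from MNPs of embryos with a tag in the endogenous *Hand2* gene. Each of the 3 groups had 2 biological replicates made from pooled tissue. The samples were labelled E11.5, while the text of the series gives E10.5, and the labels state no further treatment. Each deposited list held the peaks shared between its replicates: all entries of the 3 lists named both of them. The lists gave positions and no height, score or read count, so the depth is unknown, no value has an error between replicates, and the tissue could not be checked against marker genes. Pooled tissue holds epithelium and other cells beside the NCC-derived mesenchyme, and the cells in which a peak arose cannot be told apart.

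The sequences that carry the Gli and Hand2 motifs near these genes are shown first, each on the plus strand of GRCm38.p6 (the assembly of mm10), with the motif in capitals. The canonical Gli-binding motif (cGBM) was searched as GACCACCC, the divergent motif (dGBM) as GACCTCCC and the Hand2 E-box as CAGATG, all on both strands, so that GGGTGGTC is a cGBM and CATCTG an E-box on the minus strand. To sort peaks the authors used looser definitions: a partial match to a cGBM pattern, and for the dGBM at least CCTCC in peaks without a cGBM. A peak said here to lack the cGBM or dGBM lacks the exact string and may hold a motif by their definitions. The first sequence is the whole face Gli3 peak upstream of *Hes1*, in which the cGBM stood 1 base from an E-box of the general form CANNTG, also in capitals. The next is the whole face peak far upstream of *Hey1*, which overlapped a Hand2 peak. After these come the *Hes1* downstream peak and the *Jag1* intron peak, present in all 3 lists and shown here at their whole face intervals, both with a CAGATG. The short stretches that follow are the cGBM of the *Jag1* intron and the dGBM in a *Hes1* intron, and then the cGBM and the dGBM in untranslated regions (UTRs) of *Heyl*.
Hes1 upstream, chr16:30054312-30054542: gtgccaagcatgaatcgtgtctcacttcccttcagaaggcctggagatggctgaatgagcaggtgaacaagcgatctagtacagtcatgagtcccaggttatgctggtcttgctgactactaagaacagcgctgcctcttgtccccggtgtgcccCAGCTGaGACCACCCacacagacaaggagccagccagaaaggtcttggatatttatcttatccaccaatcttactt
Hey1 upstream, chr3:8723106-8723311: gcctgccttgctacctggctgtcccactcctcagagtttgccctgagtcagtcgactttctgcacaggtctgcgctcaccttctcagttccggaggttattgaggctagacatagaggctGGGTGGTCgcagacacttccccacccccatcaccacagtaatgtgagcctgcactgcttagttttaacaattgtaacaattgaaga
Hes1 downstream, chr16:30103484-30103758: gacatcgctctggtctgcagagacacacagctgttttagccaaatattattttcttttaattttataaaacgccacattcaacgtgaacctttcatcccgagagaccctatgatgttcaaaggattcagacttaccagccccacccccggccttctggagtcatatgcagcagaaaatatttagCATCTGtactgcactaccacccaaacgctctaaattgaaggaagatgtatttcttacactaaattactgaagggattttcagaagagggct
Jag1 intron, chr2:137087846-137088055: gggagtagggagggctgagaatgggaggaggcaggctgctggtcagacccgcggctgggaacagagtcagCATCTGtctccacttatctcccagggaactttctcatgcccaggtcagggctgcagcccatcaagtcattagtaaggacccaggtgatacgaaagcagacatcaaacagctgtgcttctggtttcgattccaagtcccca
Jag1 cGBM, chr2:137088229-137088280: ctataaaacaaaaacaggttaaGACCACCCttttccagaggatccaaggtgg
Hes1 dGBM, chr16:30066771-30066822: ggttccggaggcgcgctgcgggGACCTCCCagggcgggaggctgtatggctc
Heyl cGBM, chr4:123247611-123247640: ttcccccccagGACCACCCagcatgccctc
Heyl dGBM, chr4:123233632-123233661: gagcggagccgGACCTCCCagcggccgatg

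Gli3 peaks were spread unevenly over the 9 genes. In the MNP list *Hes1* had 7 Gli3 peaks, *Jag1*, *Jag2*, *Hey1* and *Heyl* had 2 each, *Notch1*, *Notch2* and *Hey2* had 1 each, and *Dll1* had 0. In the whole face list *Hes1* had 8, *Hey1* had 4, *Jag1*, *Notch2* and *Heyl* had 3 each, and *Jag2*, *Dll1*, *Notch1* and *Hey2* had 1 each. Thus 8 of 9 genes had a Gli3 MNP peak, against 56.1% of all protein-coding genes, and 9 of 9 had a Gli3 whole face peak, against 46.1%. For the Gli3 MNP peaks of *Jag2*, *Notch1*, *Notch2* and *Hey2*, however, the nearest protein-coding gene start was always that of another gene. The same held for the whole face peaks of *Jag2*, *Dll1*, *Notch1* and *Hey2*. The median number over the 9 genes was 2 in the MNP and 3 in the whole face, beside medians of 1 and 0 over all protein-coding genes. In the MNP list 1 of the 9 genes, *Hes1*, exceeded the 90th percentile of all genes, which was 3 peaks. In the whole face list, where it was 2 peaks, 5 did (*Jag1*, *Notch2*, *Hes1*, *Hey1* and *Heyl*).

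Hand2 peaks were more numerous, as the whole list was. *Notch2* and *Hes1* had 23 each, *Notch1* had 20, *Jag1* had 12, *Heyl* had 10, *Hey1* and *Hey2* had 9 each, *Jag2* had 7 and *Dll1* had 5. All 9 genes had at least 1, against 89.0% of all genes, a background that leaves little room for a difference. Since longer genes have longer windows, the counts were also set per 100 kb of window: the 9 genes had a median of 4.62 Hand2 peaks per 100 kb (range 2.39 to 11.3), beside a median of 2.39 over all protein-coding genes. On this scale *Hes1*, with a gene body of 3413 bp, was the highest at 11.3, *Notch1* followed at 7.73 and *Notch2* at 6.83, and *Dll1* was the lowest at 2.39.

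**Figure D1:**
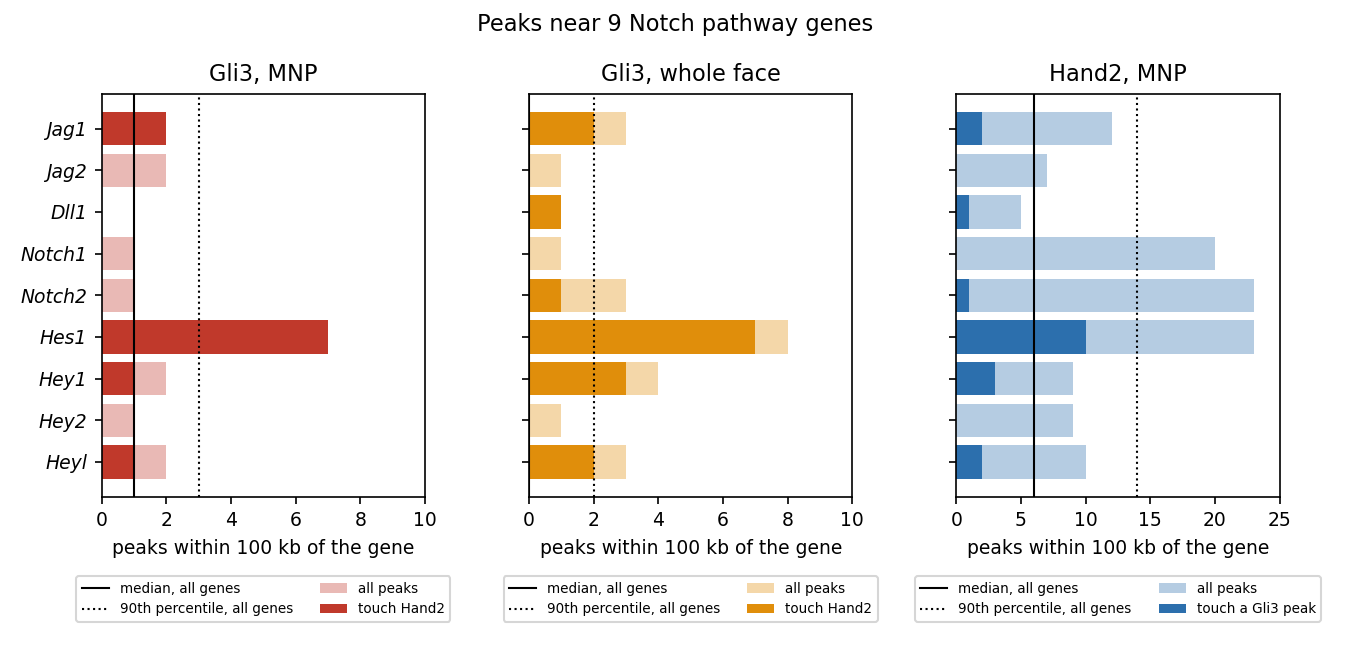
Number of peaks within 100 kb of each gene (x axis) for Gli3 in the MNP, Gli3 in the whole face and Hand2 in the MNP; the dark part of a bar is the number that overlapped a peak of the other factor, the solid line is the median and the dotted line the 90th percentile over 21951 protein-coding genes. *Hes1* has 7, 8 and 23 peaks, and its dark part is 7 in the MNP.

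Gli3 peaks that share at least 1 bp with a Hand2 peak are called Gli3/Hand2 overlapping peaks, and the others Gli3-alone peaks. Of the 18 Gli3 MNP peaks near the 9 genes, 11 were overlapping (61.1%, 95% Wilson interval 38.6 to 79.7%), and 61.4% of all Gli3 MNP peaks were, so the share was that of the whole list. Without *Hes1* the share was lower, 4 of 11 (36.4%, 15.2 to 64.6%), but this interval still included the 61.4% of the list. In the whole face 16 of 25 Gli3 peaks were overlapping (64.0%, 44.5 to 79.8%), against 47.6% of the whole list, and 9 of 17 (52.9%, 31.0 to 73.8%) without *Hes1*. These intervals cover counting error only. The Hand2 list comes from the MNP alone, so it is not a matched partner for the whole face.

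An overlapping MNP peak was found near 4 of the 9 genes (*Jag1*, *Hes1*, *Hey1* and *Heyl*), against 41.6% of all genes, which is close to the same share. An overlapping whole face peak was found near 6 of 9 (*Jag1*, *Dll1*, *Notch2*, *Hes1*, *Hey1* and *Heyl*), against 25.8%. Seen from Hand2, 19 of its 118 peaks touched a Gli3 peak of either list (16.1%), 10 of them near *Hes1*; without *Hes1* 9 of 95 did (9.47%), and over the whole list 8.31% did. The Hand2 peaks near the 9 genes that touched a Gli3 peak were the wider ones, with a median of 760 bp (n = 19), beside 459 bp for those that touched none (n = 99), as they were over the whole list (621 bp and 439 bp). The Gli3 MNP peaks near the 9 genes went the other way, with a median of 481 bp for overlapping peaks (n = 11) and 505 bp for Gli3-alone peaks (n = 7), although over the whole list the medians were 665 bp and 495 bp. The part of width in the overlap was not tested.

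When the entries of both Gli3 lists that shared a base were joined, the 9 genes had 31 Gli3 sites. Of these, 12 were in both Gli3 lists, 6 only in the MNP list and 13 only in the whole face list. Of the Gli3 MNP peaks near the 9 genes, 12 of 18 shared a base with a whole face peak (66.7%, Wilson interval 43.7 to 83.7%), against 39.2% of the list. Of the whole face peaks, 12 of 25 shared a base with a Gli3 MNP peak (48.0%, 30.0 to 66.5%), against 37.6%. The first interval lay above its list share and the second included it, but both cover counting error only. The genes were chosen with their peaks known and several of the shared peaks were near *Hes1*, so no surplus is read from these shares. A Hand2 peak overlapped 9 of the 12 sites in both lists, 2 of the 6 MNP sites and 7 of the 13 whole face sites. A site absent from a list is one that was not shared by its replicates at the threshold used, and without read counts no difference between the tissues can be read from it. The whole face includes the MNP.

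**Figure D2:**
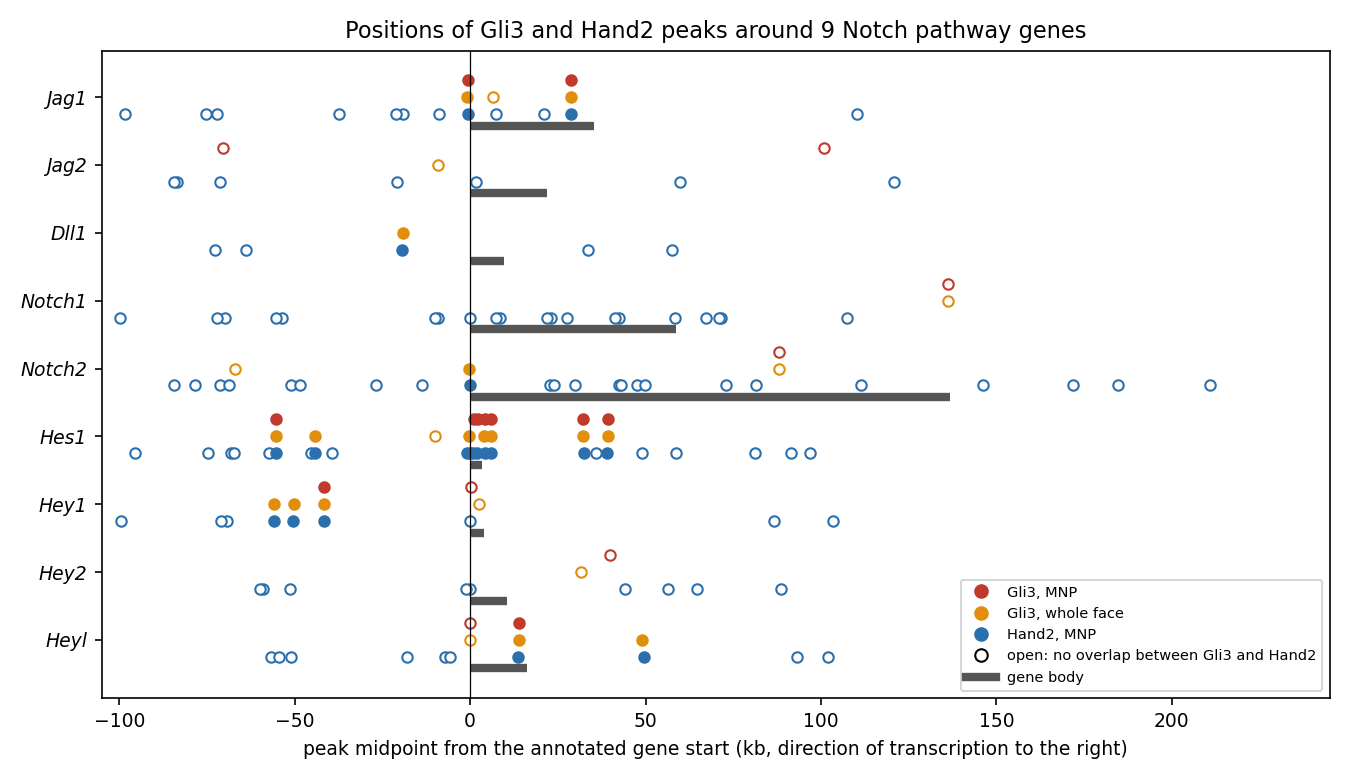
Midpoints of all peaks of the 3 lists around the 9 genes, in kb from the annotated gene start with transcription to the right; filled points are peaks where Gli3 and Hand2 overlap, open points are peaks of 1 factor, and grey bars are gene bodies. The filled points gather at *Hes1*, and the Gli3 peaks of *Jag2*, *Notch1* and *Hey2* are all open.

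Of the ligand genes, *Jag1* (ENSMUSG00000027276.7, chr2:137081456-137116644, minus strand) had the closest Gli3 peaks. One Gli3 MNP peak at chr2:137116765-137117882, 1118 bp wide, had its midpoint 680 bp upstream of the gene start, and a Hand2 peak of 1203 bp lay over it with a midpoint 73 bp away. The whole face peak at this place was narrower, 243 bp, with its midpoint 942 bp upstream. Neither Gli3 interval held a cGBM, a dGBM or a CAGATG.

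The other *Jag1* site lay inside the gene, 28.6 kb from its start in an intron. There the Gli3 MNP peak (chr2:137087655-137088416, 762 bp) and the Hand2 peak (852 bp) had midpoints 6 bp apart, and the whole face peak of 210 bp lay within the MNP interval. The CAGATG shown above was inside all 3 intervals. The cGBM was 219 bp from the midpoint of the MNP peak, inside the Hand2 interval and outside the whole face interval. A further whole face peak in the gene, 6.53 kb from its start, was Gli3-alone, with the nearest Hand2 midpoint 699 bp away. For all 5 Gli3 peaks of *Jag1* and all 12 Hand2 peaks, *Jag1* was the protein-coding gene with the nearest start.

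*Jag2* (chr12:112907819-112929776, minus strand), the other Jagged ligand, had 2 Gli3 MNP peaks and 1 whole face peak, none overlapping Hand2. Its MNP peaks lay 427 bp from the start of *Cdca4* and 396 bp from the start of *Brf1*, at 101 kb downstream and 70.5 kb upstream of the start of *Jag2*, and its whole face peak lay in an exon of *Nudt14*. *Jag2* was thus the nearest gene of none of them, and of only 1 of 7 Hand2 peaks, an intronic one 1.74 kb from the start. *Dll1* (chr17:15367354-15376872, minus strand), a Delta ligand, had no Gli3 MNP peak. Its 1 whole face peak overlapped Hand2 19150 bp upstream, but lay 180 bp from the start of *Fam120b*, and *Dll1* was the nearest gene of 2 of its 5 Hand2 peaks. A peak in the window of a gene is therefore not always a peak nearest to it.

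Both receptor genes carried many Hand2 peaks and few Gli3 peaks, but *Notch1* was the nearest gene of only 8 of its 20 Hand2 peaks, and *Notch2* of 13 of its 23. *Notch1* (chr2:26457903-26516663, minus strand) had 8 Hand2 peaks in its gene body and 8 upstream, and none of the 20 in its window, the widest 1461 bp, touched a Gli3 peak. A Hand2 peak of 1224 bp with 4 CAGATG sites covered the annotated GENCODE gene start, its midpoint 83 bp away. The RefSeq start of *Notch1* lies 12841 bp further into the gene, and no peak of any list touched the RefSeq promoter there, which runs from 250 bp before to 50 bp after the start. The Gli3 MNP peak and whole face peak counted for *Notch1* were at 1 site 136 kb from its start, 144 bp and 111 bp from the start of *Snapc4*, with the nearest Hand2 midpoint 28372 bp from the MNP peak.

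*Notch2* (chr3:98013527-98150361, plus strand) was the receptor gene with a Gli3 peak at its start: a whole face peak of 202 bp, chr3:98013219-98013420, had its midpoint 207 bp upstream and overlapped a Hand2 peak of 399 bp whose midpoint lay 35 bp downstream. None of the cGBM, dGBM and CAGATG was in this Gli3 interval or in that Hand2 interval. A Gli3 site 88.1 kb into the gene was in both Gli3 lists without Hand2, which had its nearest midpoint 6491 bp from the MNP peak, and a whole face peak 66.9 kb upstream was also Gli3-alone. Of the 23 Hand2 peaks, 11 were in the gene body, including the widest near any of the 9 genes, 1903 bp, and 15 of 23 held a CAGATG, with 23 sites in all.

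*Hes1* (ENSMUSG00000022528.8, chr16:30064384-30067796, plus strand), a repressor gene that Notch signalling induces, had 7 of the 11 overlapping MNP peaks, 7 of the 16 overlapping whole face peaks and 9 of the 18 joined Gli3 sites with Hand2. All 7 of its Gli3 MNP peaks were overlapping, and only 0.456% of protein-coding genes (100 of 21951) had 7 or more of these within 100 kb. In the whole face list 7 of its 8 peaks were overlapping, and 25 genes had as many or more. *Hes1* was the nearest protein-coding gene of all 7, all 8 and all 23 peaks of the 3 lists, so no other protein-coding gene start lay closer to any of them.

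Around the gene body of *Hes1* the Gli3 MNP peaks lay at 1.02, 2.27, 4.10 and 5.82 kb from the annotated start. Their widths were 273, 1413, 983 and 463 bp, and the midpoints of the Hand2 peaks that overlapped them were 117, 217, 70 and 68 bp away. The transcript that encodes the protein starts at position 30065340, which is 956 bp after the annotated gene start, so the first of these peaks was 61 bp from it. The second peak, which ran from an intron into the last exon, held the dGBM shown above, inside the Hand2 peak and 21 bp from the nearest E-box of the form CANNTG. It also held 1 CAGATG in an exon. The whole face list had no entry at the first and second of these peaks, had entries over the other two (4.05 and 6.08 kb), and had another 459 bp upstream of the gene start that touched a pair of Hand2 peaks with midpoints 873 and 164 bp upstream.

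Further away, *Hes1* had 3 sites at which the midpoints of both Gli3 lists nearly coincided: 55.4 kb upstream, and 32.3 and 39.2 kb downstream of the start in the MNP list. The midpoints of the whole face peaks were 55431 bp upstream and 32229 and 39237 bp downstream, beside 55437, 32261 and 39248 bp in the MNP. Hand2 intervals of 566, 884 and 1276 bp overlapped them; the first was narrower than the Gli3 MNP peak there, which was 742 bp wide. The site 39.2 kb downstream held the CATCTG shown above in all 3 intervals. A whole face peak 44.1 kb upstream overlapped Hand2 without an MNP partner and held a CAGATG, while its Hand2 peak held 4. The only Gli3-alone peak of *Hes1* was the whole face peak 9.96 kb upstream, the only one of its Gli3 peaks with a cGBM, and the nearest Hand2 midpoint was 9084 bp from it.

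**Figure D3:**
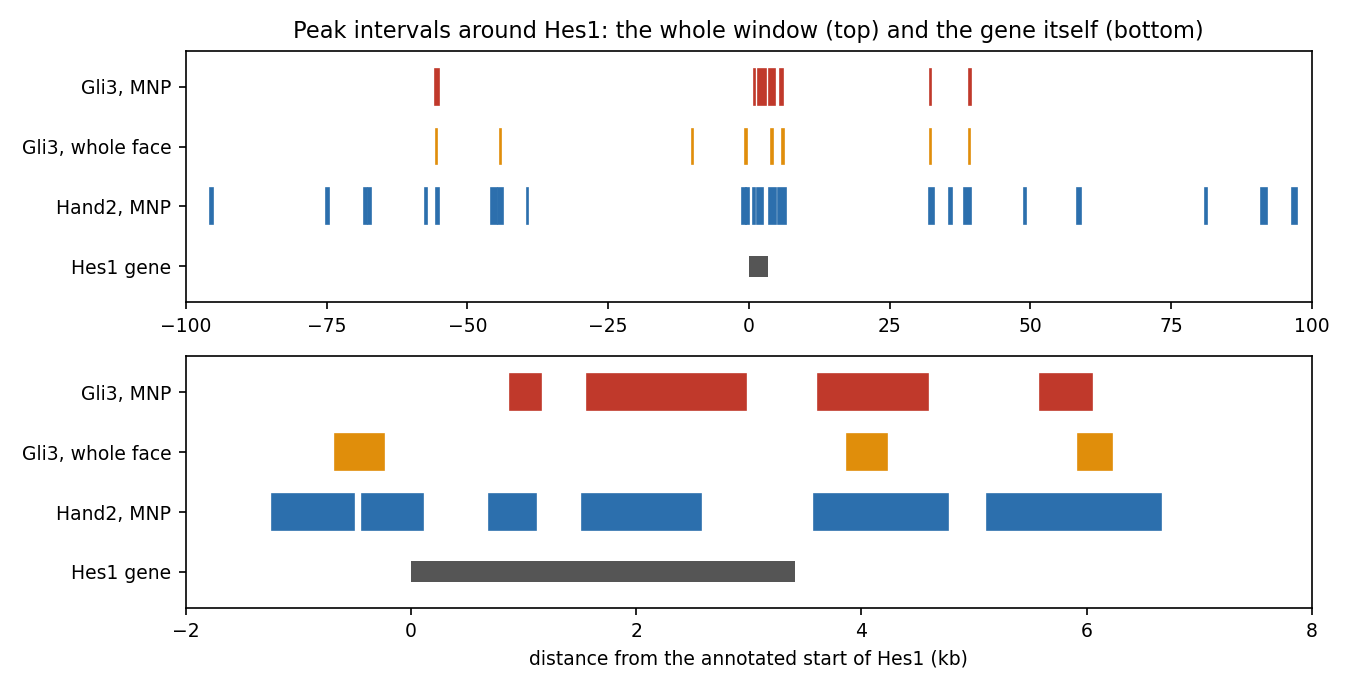
Peak intervals of the 3 lists around *Hes1*, drawn to scale in kb from its annotated start, over the whole window (top) and around the gene (bottom); the grey bar is the gene body. Each of the 7 Gli3 MNP intervals lies over a Hand2 interval, and the whole face interval near -10 kb does not.

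*Hey1* (chr3:8663359-8667256, minus strand) had its overlapping peaks upstream. At 41.7 kb upstream a Gli3 MNP peak of 481 bp, a whole face peak of 206 bp and a Hand2 peak of 450 bp coincided, with midpoints of the MNP and Hand2 peaks 31 bp apart. None of these intervals held any of the cGBM, the dGBM and the CANNTG. Whole face peaks at 50.2 and 56.0 kb upstream overlapped Hand2 too, and the second held the cGBM shown above, 21 bp from its midpoint, inside the Hand2 interval. At the gene start the peaks of both factors were neighbours without touching: a Gli3 MNP peak of 164 bp lay 281 bp downstream in a UTR, and the midpoint of a Hand2 peak lay 136 bp upstream, 417 bp from it. A whole face peak 2.50 kb from the start, in an exon, was Gli3-alone.

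*Heyl* (chr4:123233556-123249875, plus strand) had a Gli3 peak of both lists on its start and no Hand2 peak there. The MNP peak (477 bp) had its midpoint 90 bp and the whole face peak (204 bp) 31 bp downstream of the start, both held the dGBM shown above in the UTR, and the nearest Hand2 midpoint was 5739 bp from the MNP peak. The other site of both lists, 13.9 kb from the start and in the UTR at the end of the gene, overlapped a Hand2 peak of 543 bp. Both Gli3 intervals held the cGBM there, but it was outside the Hand2 interval and 162 bp from the midpoint of the MNP peak. A further whole face peak, 49.1 kb from the start, overlapped Hand2 in an intron of *Pabpc4*. *Hey2* (chr10:30832359-30842801, minus strand) had Gli3-alone peaks only: the MNP peak 39.7 kb from its start was 262 bp from the start of *Ncoa7*, and the whole face peak was 31.7 kb from its start. Hand2 peaks lay at the start of *Hey2*, with midpoints 84 and 1148 bp upstream. *Hey1* was the nearest gene of 7 of its 9 Hand2 peaks, *Hey2* of 5 of 9 and *Heyl* of 3 of 10.

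Peaks at gene starts were defined by a midpoint within 1 kb of the annotated gene start. A Gli3 MNP peak met this at 3 of 9 genes (*Jag1*, *Hey1* and *Heyl*), against 15.4% of all protein-coding genes. A Gli3 whole face peak did at 4 of 9 (*Jag1*, *Notch2*, *Hes1* and *Heyl*), against 5.37%, and a Hand2 peak at 6 of 9 (*Jag1*, *Notch1*, *Notch2*, *Hes1*, *Hey1* and *Hey2*), against 30.0%. Values close to the limit were 942 bp inside it (*Jag1*, whole face) and 1017 bp outside it (*Hes1*, MNP). With any annotated transcript start in place of the gene start, *Hes1* was added to the MNP genes and *Jag2* to the Hand2 genes. Counted from the start of its protein-coding transcript alone, *Hes1* had the MNP peak (61 bp) and a Hand2 peak (56 bp) within 1 kb, and its whole face peak, 1415 bp away, was outside. The lists present within 1 kb of the annotated gene start differed between genes: *Jag1* had all 3, *Notch2* and *Hes1* had the whole face and Hand2 lists, *Hey1* had the MNP and Hand2 lists, and *Heyl* had both Gli3 lists. At the outer edge of the window, the farthest Gli3 peaks counted lay 78823 bp (MNP, *Jag2*) and 77361 bp (whole face, *Notch1*) from the gene body. The first ones left out, 100385 and 100365 bp from *Hey1*, came with a Hand2 peak 100485 bp away.

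For the Gli motifs and the CAGATG E-box in Gli3 peaks near the 9 genes, the intervals of the shares include the shares of the lists they came from. A cGBM was in 2 of 18 Gli3 MNP peaks (11.1%, 95% Wilson interval 3.10 to 32.8%), against 13.3% of all peaks of the list, and in 3 of 25 whole face peaks (12%, 4.17 to 30.0%), against 19.8%. A dGBM was in 2 of 18 MNP peaks (11.1%), against 6.60%, and in 1 of 25 whole face peaks (4%), against 6.17%. The CAGATG E-box was in 5 of 18 MNP peaks (27.8%), against 27.2%, and 4 of these 5 were near *Hes1*. It was in 59 of 118 Hand2 peaks (50%, 41.1 to 58.9%), against 47.1%. In the Hand2 peaks the cGBM was more frequent than in the list, in 5 of 118 (4.24%, 1.82 to 9.54%), against 1.49%, and the dGBM was in 3 of 118 (2.54%, 0.868 to 7.21%), against 1.82%. Of the Hand2 peaks with a cGBM, 2 were near *Jag1*. In the middle 200 bp the cGBM was in 2 of 118 Hand2 peaks (1.69%, 0.466 to 5.97%), against 0.582%, an interval that includes the list share. In RefSeq promoters (GRCm38.p6, the same 250 bp before to 50 bp after the start), which were given for 6 of the 9 genes and not for *Hes1*, *Hey1* and *Heyl*, none of the 6 held a cGBM, a dGBM or a CAGATG, and 0.807%, 1.28% and 17.2% of all RefSeq promoters held them.

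The core of the site that RBPJ binds, TGGGAA on either strand, was in 11 of 18 Gli3 MNP peaks (61.1%, 38.6 to 79.7%), against 38.1% of all peaks of that list. It was in 65 of 118 Hand2 peaks (55.1%, 46.1 to 63.8%), against 40.7%, and in 6 of 25 whole face peaks (24.0%, 11.5 to 43.4%), against 22.2%. Peaks without those of *Hes1* gave 63.6% (7 of 11, 35.4 to 84.8%), 52.6% (50 of 95, 42.7 to 62.4%) and 35.3% (6 of 17, 17.3 to 58.7%). Of these intervals, those of both Gli3 lists included the list share and that of Hand2 did not. In the middle 200 bp the core was in 4 of 18 Gli3 MNP peaks (22.2%), against 12.7%, and the interval included the list share. There it was in 37 of 118 Hand2 peaks (31.4%, 23.7 to 40.2%), against 19.3%, and in 6 of 25 whole face peaks (24.0%), against 18.8%. At the median the Gli3 MNP peaks near the 9 genes were narrower than their list (493 bp against 577 bp), and the Hand2 peaks were slightly wider (483.5 bp against 451 bp). A match of 6 letters is a description of sequence and not of a bound site.

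**Figure D4:**
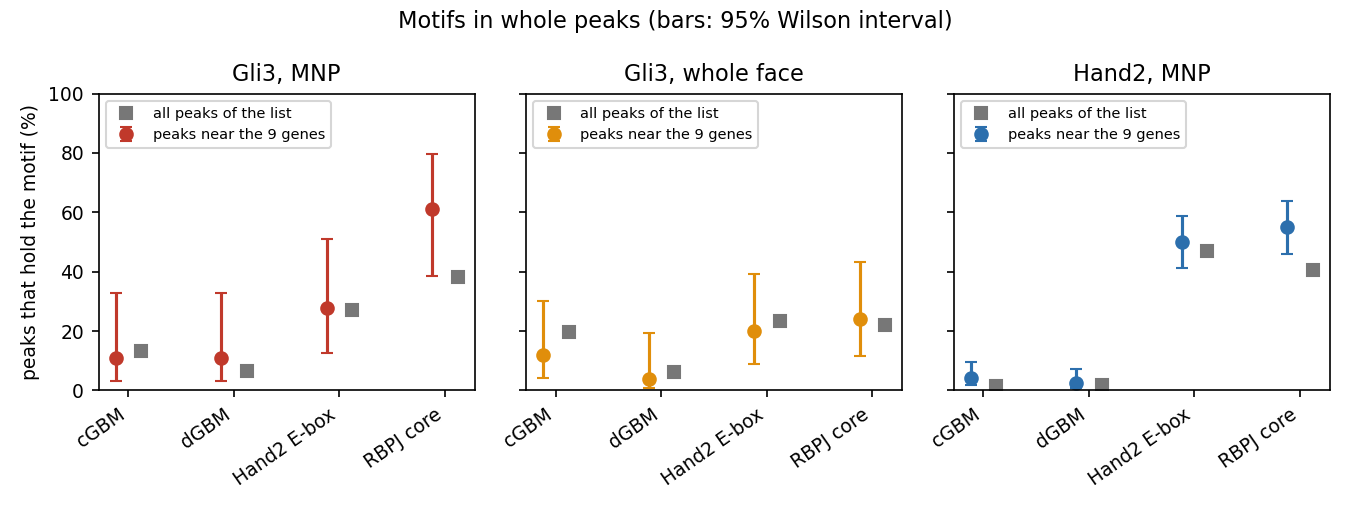
Share of peaks in each list that held the cGBM, the dGBM, the CAGATG E-box or the RBPJ core TGGGAA; circles are the peaks near the 9 genes (n = 18, 25 and 118) with 95% Wilson intervals, and squares all peaks of the list. The RBPJ core lies above the square in the Gli3 MNP list (61.1% and 38.1%) and the Hand2 list (55.1% and 40.7%). In the middle 200 bp alone, or without *Hes1*, the Gli3 MNP interval of the core includes the list share.

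Among 38 other genes of the pathway, from the remaining ligands and receptors to the enzymes that process them, 30 had a Gli3 MNP peak (78.9%, against 56.1% of all protein-coding genes), 22 a whole face peak (57.9%, against 46.1%) and 38 a Hand2 peak (against 89.0%) within 100 kb. An overlapping MNP peak was near 25 of 38 (65.8%, against 41.6%), but the highest number at any of these genes was 3, beside 7 at *Hes1*. Gli3 MNP peaks were at the start of 7 of them (18.4%), a share near the 15.4% of all genes: *Adam10* and *Adam17*, which encode proteases that cut the Notch receptor, the co-activator gene *Maml1*, the ubiquitin ligase genes *Mib1* and *Itch*, the glycosyltransferase gene *Pofut1*, and *Hes6*. A whole face peak was at the start of *Adam17* and of the co-activator gene *Maml3* (5.26%, against 5.37%). The most Hand2 peaks were near *Maml3* (39), *Dlk1* (28), *Maml2* (26), *Rbpj* (16) and *Hes7* (15). *Rbpj* itself, which encodes the DNA-binding partner of the cleaved receptor, had 0 Gli3 peaks in either list. The windows of *Maml3* and *Maml2* spanned 619 and 611 kb, beside 203 kb for *Hes1*.

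For scale, 12 genes of the Hedgehog pathway had 1 to 9 Gli3 MNP peaks each, 1 to 13 whole face peaks and 0 to 8 overlapping MNP peaks. *Hes1*, with 7, 8 and 7, lay within these ranges. The genes outside the pathway with the counts most like those of *Hes1* in the 3 lists were *Scarb1* (8 Gli3 MNP, 6 whole face and 23 Hand2 peaks), *Srebf1* (7, 9 and 21) and *Tom1l2* (5, 7 and 23), each with a sum of differences of 3 over the 3 lists. *Srebf1* and *Tom1l2* are both on chromosome 11, and whether their windows share peaks was not checked, so they may not be separate matches. Of their Gli3 MNP peaks 5, 6 and 4 were overlapping, beside 7 of 7 at *Hes1*.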

How the data were processed

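ChIP-seq with an anti-FLAG antibody was analysed for 6 samples in 3 groups. The authors fixed pooled tissue in formaldehyde, sequenced single-end reads, aligned them with bwa to mm10 and used bedtools to keep peaks shared between biological replicates; a mock ChIP used wild-type embryos. In the submitters' processing notes the tools BWA, bedtools and HOMER appear without versions; for these lists the peak caller was not given in the sources used here. The deposited peak lists hold positions and the names of the merged replicate peaks, with no score, signal or count.

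Peaks were assigned to 21951 protein-coding genes of GENCODE vM21 by midpoint within 100 kb of the gene body. Overlap meant at least 1 bp, and a gene start peak a midpoint within 1 kb. Motifs were exact matches on both strands, and shares carry 95% Wilson intervals. No test was run. The members, gene lists and motifs were chosen with earlier results of these data known. The genes named were the 9 members, other pathway genes with a Gli3 peak at the gene start or among the 5 with most Hand2 peaks, and the 3 genes most like *Hes1* by the sum of absolute differences in the 3 counts; genes next to members' peaks were named after their values were seen. Counting was tested on simulated data and was right for 100 of 100 gene windows and 200 of 200 sequences. Python 3.11.15, numpy 2.4.6, scipy 1.17.1, pysam 0.24.0 and matplotlib 3.10.9 were used.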

Additional observations from a re-analysis of the deposited data

How the results depend on the processing

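Of 49 alternatives, 30 gave counts within 1.5 times those reported and 19 did not. With a window of 250 kb in place of 100 kb the 9 genes had 218 Hand2 peaks, 32 Gli3 MNP peaks (20 overlapping Hand2) and 25 overlapping whole face peaks; with 50 kb they had 70 Hand2 peaks. Hand2 peaks for which one of the 9 genes was the nearest numbered 74. Keeping peaks of the median width of their list or wider left 65 Hand2, 8 Gli3 MNP (5 overlapping, near 2 genes) and 11 whole face peaks (8 overlapping). Without *Hes1*, an alternative chosen after seeing the data, 11 Gli3 MNP peaks remained, 4 of them overlapping, and 9 overlapping whole face peaks. With motifs searched in the middle 200 bp, CAGATG was in 34 Hand2 and 2 Gli3 MNP peaks, the cGBM in 0 Gli3 MNP peaks and the dGBM in 1. Windows and width limits change the counts by construction. Requiring Hand2 to cover 50% of the Gli3 peak left all 11 overlapping MNP peaks and 14 of 16 in the whole face. No paired analysis was possible because each deposited list merges both replicates, and for the same reason neither replicate could be left out.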

Other observations

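Hes and Hey proteins bind the E-box CACGTG and the related CACGCG. Of the 118 Hand2 peaks near the 9 genes, 15 held CACGTG (12.7%, 95% Wilson interval 7.86 to 19.9%), against 8.30% of all Hand2 peaks, and 14 held CACGCG (11.9%, 7.20 to 18.9%), against 5.63%. In the middle 200 bp CACGTG was in 7 of 118 (5.93%, 2.90 to 11.7%), against 3.52%. There CACGCG was in 6 of 118 (5.08%, 2.35 to 10.7%), against 2.40%, and both of these intervals include the list share. Near *Hes1*, 4 of 23 Hand2 peaks held CACGTG and 4 held CACGCG. In the Gli3 MNP peaks near the 9 genes CACGTG was in 1 of 18 and CACGCG in 4 of 18 (22.2%), against 13.3% and 29.8% of the list, and in the 25 whole face peaks neither was found, against 5.06% and 6.10%.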
